A study of Mus musculus with 2 samples.

Results

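Mir219a-1, Mir219a-2 and Mir338 are 3 microRNA genes known as promoters of oligodendrocyte differentiation. They were chosen by symbol from the GENCODE M21 annotation, and all 3 were found among the 2202 genes of the count tables. The tissue was hippocampus of female B6CASTF1/J mice aged 10 days, first-generation hybrids of C57BL/6J and CAST/EiJ mice, and no treatment is given. The series has 1 group of 2 biological replicates, each of which pools its own set of 3 females by its label. Total RNA was used, with molecules under 30 nt sequenced. With 1 group there is no comparison between conditions, so the values below describe levels, strands, sequences and the spread between the 2 libraries.

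A microRNA gene is transcribed as a hairpin, from which a 5p or a 3p strand of about the length of the reads is cut and loaded into Argonaute. Bases 2 to 8 of that strand, the seed, pair with messenger RNAs and lower their output. In the oligodendrocyte lineage, miR-219 and miR-338 are known to accumulate as progenitors stop dividing, and to repress messenger RNAs that keep the progenitor state, such as those for the growth factor receptor Pdgfra and the transcription factor Sox6. Both have also been described in neurons, so neither is a marker of 1 cell type alone. In bulk tissue, fewer cells of a type and less RNA per cell cannot be told apart.

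The mature strands are shown first because their letters set which reads can be assigned to which gene. Sequences are those of RefSeq on GRCm38.p6, written 5′ to 3′ with the seed in capitals. The RefSeq set used here lists no 3p strand for Mir219a-2, so none is printed. Its absence below does not mean that the gene gives only the 5p strand. The RefSeq hairpins of the 3 genes and of the 3 microRNA genes opposite them have the same positions as in GENCODE M21.
mmu-miR-219a-5p, from both Mir219a-1 and Mir219a-2: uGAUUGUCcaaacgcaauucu
mmu-miR-219a-1-3p, from Mir219a-1: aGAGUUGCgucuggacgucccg
mmu-miR-338-3p, from Mir338: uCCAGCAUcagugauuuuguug
mmu-miR-338-5p, from Mir338: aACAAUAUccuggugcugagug

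No seed was shared between different strands in this set, so Mir219 and Mir338 belong to separate seed families. None of the 4 seeds occurred in another gene's strand among 1738 mature strands in the RefSeq table. The strands are 21 or 22 nt long.

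The 3 hairpins follow, with the mature strands listed above in capitals. The 3p side of Mir219a-2 is in lower case only because no strand was listed for it.
Mir219a-1, chr17:34024983-34025092, minus strand: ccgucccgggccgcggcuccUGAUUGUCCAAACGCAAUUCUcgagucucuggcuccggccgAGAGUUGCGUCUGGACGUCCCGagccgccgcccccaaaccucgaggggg
Mir219a-2, chr2:29845631-29845727, minus strand: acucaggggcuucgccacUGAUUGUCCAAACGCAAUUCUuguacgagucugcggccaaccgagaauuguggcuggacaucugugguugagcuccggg
Mir338, chr11:120014765-120014862, minus strand: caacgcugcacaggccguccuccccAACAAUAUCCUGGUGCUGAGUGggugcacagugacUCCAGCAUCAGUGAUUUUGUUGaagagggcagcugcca

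Mir219a-1 (ENSMUSG00000065555.1) lies 302 bases from Ring1, which encodes a Polycomb ubiquitin ligase, on the same strand and upstream of it. Of its 110 bases, 88 overlap the exon of Gm26940, a long non-coding gene on the same strand. Mir219a-2 (ENSMUSG00000065485.1) lies in no other gene on its own strand, and the nearest coding gene, Urm1, ends 628 bases away on the plus strand. Mir338 (ENSMUSG00000065600.1) lies on the strand of Aatk, a kinase gene of the nervous system, in the intron between exons 7 and 8 of the transcript Aatk-201. Each of the 3 loci has a microRNA gene on the other strand: Mir219c opposite Mir219a-1, Mir219b opposite Mir219a-2, and Mir3065 opposite Mir338.

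The copies of Mir219a agree on the 5p side and differ on the 3p side. The longest stretch found in both hairpins is 22 nt long and holds the whole miR-219a-5p strand, in capitals here, plus 1 base before it.
Shared by Mir219a-1 and Mir219a-2: cUGAUUGUCCAAACGCAAUUCU
The 3p side was set beside its best match in the other hairpin, with differing bases in capitals. It was identical at 15 of 22 positions.
Mir219a-1, miR-219a-1-3p: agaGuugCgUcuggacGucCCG
Mir219a-2, hairpin bases 62 to 83: agaAuugUgGcuggacAucUGU

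A read with exactly the 21 bases of miR-219a-5p therefore has 2 places. The rule for such reads is not given in the sources used here. Because the tables list reads that matched several places in a row apart from the genes, it is inferred that these reads are in neither gene's count. That row held 43.2% of all reads in replicate 1 and 39.3% in replicate 2, and how many of these are miR-219a-5p is not known. The hairpins were searched against annotated transcripts, not the genome, leaving out those that share the loci (Gm26940 and the microRNA genes on the other strand). Of the 22-nt windows in each hairpin, 88 of 89 in Mir219a-1 and 75 of 76 in Mir219a-2 were found in no transcript of another locus. None of the 77 windows of that length in Mir338 was found in a transcript of another locus, and 3 of its 81 windows of 18 nt were. If the inference holds, the counts below leave out reads that lie wholly within the shared stretch of Mir219a. The counts are per gene and do not separate the 5p from the 3p strand.

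**Figure D1:**
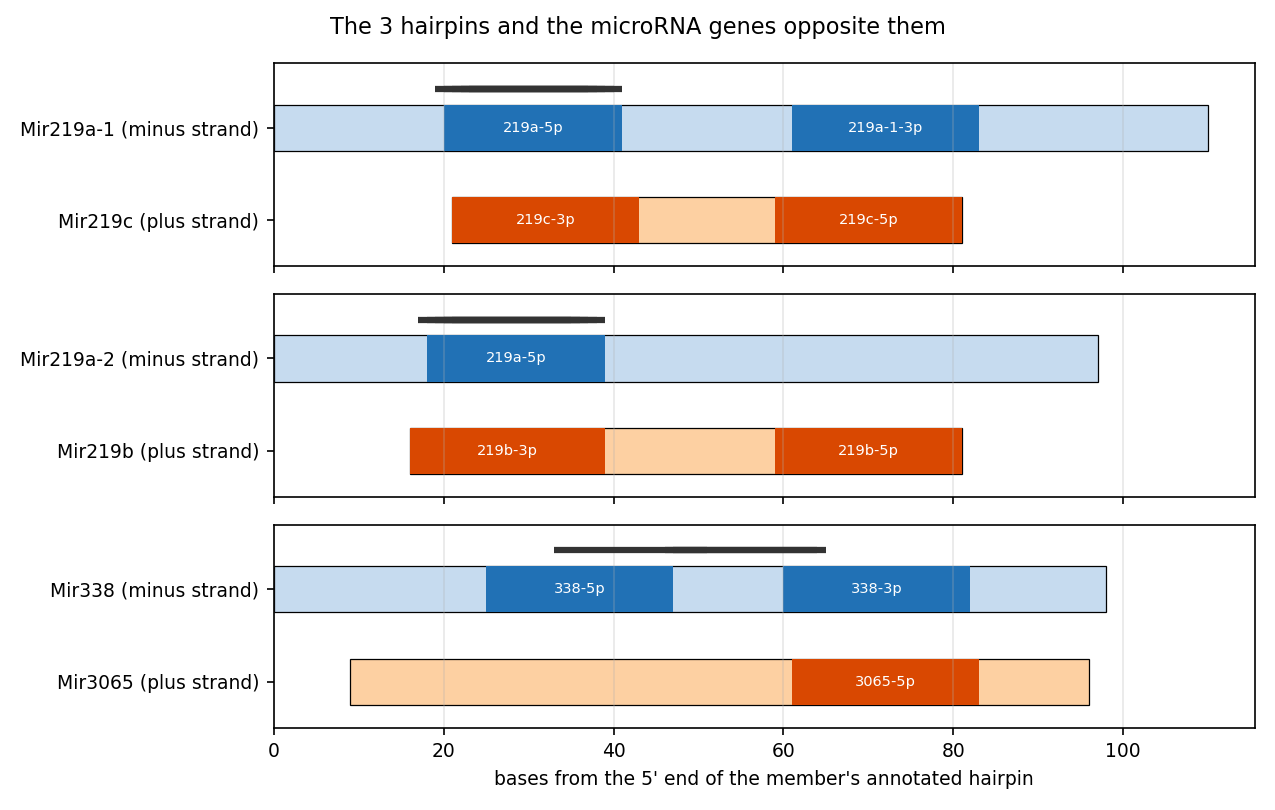
Map of the 3 hairpins (blue, minus strand) and the microRNA genes on the other strand (orange, plus strand), with mature strands listed by RefSeq in dark colour; the x axis is the distance in bases from the 5′ end of each hairpin. Black bars mark stretches whose 18-nt windows also occur in annotated transcripts of other loci: in Mir219a-1 and Mir219a-2 the bar is the shared 22-nt stretch over miR-219a-5p, and in Mir338 it joins the 3 windows found in other transcripts.

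The hairpins differ in base composition. G and C make up 69.1% of Mir219a-1, 55.7% of Mir219a-2 and 56.1% of Mir338, beside a median of 51.7% over 1005 RefSeq mouse hairpins. Predicted folding energies from RNAfold were -58.7, -48.2 and -41.9 kcal/mol in that order. Per base, 10.4% of the 1005 hairpins had an energy as low as that of Mir219a-1 or lower, 16.9% for Mir219a-2 and 40.3% for Mir338.

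Replicate 1 held 5479267 reads on the sense strand of microRNA genes and replicate 2 held 3563226. Levels are given as CPM, these reads scaled to a library total of 1e+06, where 1 read is worth 0.183 CPM in replicate 1 and 0.281 CPM in replicate 2. A gene counted as detected with at least 10 sense reads in each library, which 429 genes reached, the 3 genes here among them. Intervals are exact Clopper-Pearson intervals at 95% and cover counting error only. Reads carry no molecular identifiers, so they are not independent molecules. Nothing in the labels gives a further batch, and the values of other cell types' markers stand beside the comparison of the libraries below.

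Assigned reads of Mir219a-1 were far fewer than those of Mir219a-2 and Mir338. For the Mir219a copies these are levels of assigned reads, and the shared 5p strand may be missing from them. Mir219a-2 had 4166 sense reads in replicate 1, or 760.3 CPM (737 to 784), and 4448 in replicate 2, or 1248 CPM (1212 to 1286). Its mean was 1004 ± 345 CPM (SD, n = 2), and replicate 2 was the higher library, with intervals that did not overlap. Mir338 had 4289 sense reads in replicate 1, or 783 CPM (759.5 to 807), and 2764 in replicate 2, or 776 CPM (747 to 805). Its mean was 779 ± 5.00 CPM (SD, n = 2), and the libraries had overlapping intervals. Mir219a-1 had 110 sense reads in replicate 1, or 20.1 CPM (16.5 to 24.2), and 62 in replicate 2, or 17.4 CPM (13.3 to 22.3). Its mean was 18.7 ± 1.89 CPM (SD, n = 2), again with overlapping intervals.

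The order of Mir219a-2 and Mir338 depended on the library. Reads on Mir219a-2 were 0.971 times those on Mir338 in replicate 1 (0.931 to 1.01) and 1.61 times in replicate 2 (1.53 to 1.69). Per base of annotated hairpin the ratios were 0.981 and 1.63. With 2 values on each side, an exact permutation test cannot reach 0.05. Both levels of Mir338 lay between those of Mir219a-2 in replicates 1 and 2. Of the reads on the 3 genes, Mir219a-2 held 48.6% in replicate 1 and 61.1% in replicate 2, Mir338 held 50.1% and 38.0%, and Mir219a-1 held 1.28% and 0.852%. Together they held 0.156% of sense reads in replicate 1 (0.153 to 0.160) and 0.204% in replicate 2 (0.199 to 0.209).

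Mir219a-1 lay below the other copy in both libraries without overlap. Reads on Mir219a-2 were 37.9 times those on Mir219a-1 in replicate 1 (31.3 to 46.2) and 71.7 times in replicate 2 (55.9 to 93.7), or 42.9 and 81.4 times per base of hairpin. Of reads that could be assigned to either copy, 97.4% (96.9 to 97.9) and 98.6% (98.2 to 98.9) lay on Mir219a-2. Reads within the shared 5p strand may be in neither count, so this split does not show how much miR-219a-5p each copy gives. Mir338 exceeded Mir219a-1 by 39.0 times in replicate 1 and 44.6 times in replicate 2.

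**Figure D2:**
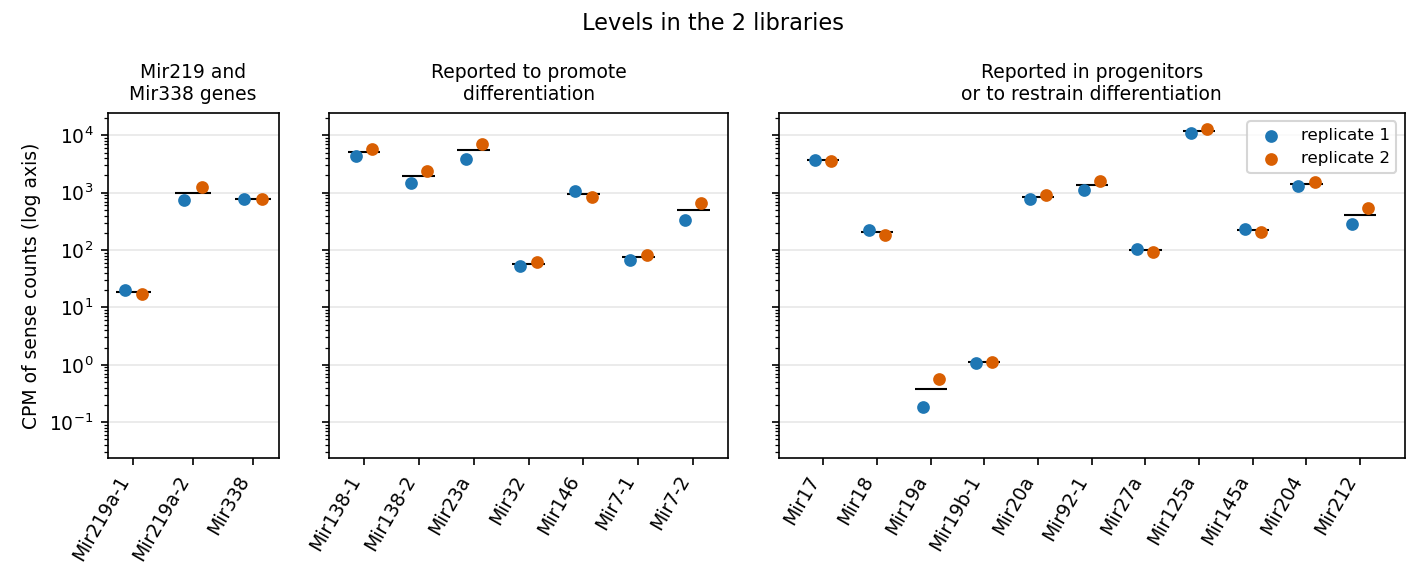
CPM of sense reads on a log axis for the 3 genes (left) and for 2 lists of other microRNAs reported in the oligodendrocyte lineage (middle and right); points are the 2 libraries and black lines their means. Means are 1004 CPM for Mir219a-2, 779 CPM for Mir338 and 18.7 CPM for Mir219a-1, and Mir219a-2 alone of the 3 differs visibly between libraries.

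Among the 429 detected genes, Mir219a-2 ranked 115th by mean CPM, Mir338 129th and Mir219a-1 297th, against a median level of 87.8 CPM. These ranks are loose for all 3. The range spanned by the 2 libraries overlapped that of 38 other detected genes for Mir219a-2, 16 for Mir338 and 37 for Mir219a-1. The next higher and next lower genes by mean were Mir672 and Mirlet7c-1 for Mir219a-2, Mir15a and Mir125b-2 for Mir338, and Mir3061 and Mir7240 for Mir219a-1, and none of these 6 differed from its neighbour beyond the libraries' ranges. In the single libraries, the rank of Mir219a-2 was 128 in replicate 1 and 103 in replicate 2, while that of Mir338 was 125 and 128.

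The genes most like each of the 3 were taken as those with the smallest distance in log2(CPM + 1) over the 2 libraries, as a description. Closest to Mir338 was Mir872, at 778 and 741 CPM in replicates 1 and 2 and a distance of 0.07, followed by Mir188 and by Mir329, which was lower than Mir338 without overlap. Closest to Mir219a-2 was Mir129-2, at 683 and 1400 CPM and a distance of 0.23, followed by Mir381 and Mir543. Closest to Mir219a-1 were Mir7047, Mir3061 and Mir152, at distances of 0.16 to 0.20.

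Reads came almost wholly from the annotated strand of the 3 genes. No read was counted on Mir219c in either library. For a count of 0 the upper limit was set at 3 reads, not by the exact interval. That limit is 0.548 CPM in replicate 1 and 0.842 CPM in replicate 2. Mir219b had 0 reads in replicate 1 and 1 in replicate 2. Mir3065 had 6 and 5 reads, or 1.10 and 1.40 CPM. The share of reads on the Mir338 strand was thus 99.86% in replicate 1 (99.70 to 99.95) and 99.82% in replicate 2 (99.58 to 99.94). For Mir219a-2 it was 100% (99.91 to 100) and 99.98% (99.87 to 99.999), and for Mir219a-1 100% in both libraries, with lower limits of 96.7% and 94.2%.

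The opposite strand can give these loci other mature products, which are shown because their genes lie over the same bases once strand is disregarded. All are exact reverse complements of part of the facing hairpin.
mmu-miR-219c-5p, facing miR-219a-1-3p: gGACGUCCagacgcaacucucg
mmu-miR-219b-3p, facing miR-219a-5p: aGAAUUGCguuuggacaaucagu
mmu-miR-3065-5p, facing miR-338-3p: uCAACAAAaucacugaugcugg
The strand of miR-219c-5p covers 20 bases of miR-219a-1-3p, miR-219b-3p covers all 21 bases of miR-219a-5p, and miR-3065-5p covers 21 bases of miR-338-3p. Their seeds, again in capitals, differ from those of the facing strands.

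The choice of strand column decided whether these genes were seen at all. When strand was disregarded in counting, Mir338 was at 0 in both libraries, Mir219a-2 at 2 reads in each and Mir219a-1 at 1 and 0, and none of the 3 was detected. The strand columns show where the lost reads lay. Of 4166 and 4448 sense reads on Mir219a-2, all but 2 in each library overlapped the 65 bases of Mir219b. All reads of Mir338 overlapped Mir3065, and all but 1 and 0 reads of Mir219a-1 overlapped the 60 bases of Mir219c. A further 24 detected genes have a microRNA gene on the other strand, and all 24 kept under 5% of their sense reads when strand was disregarded. Of these 24, 21 had at least 99% of the reads at their locus on their own strand, so the strand share of the 3 genes was usual among such pairs.

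**Figure D3:**
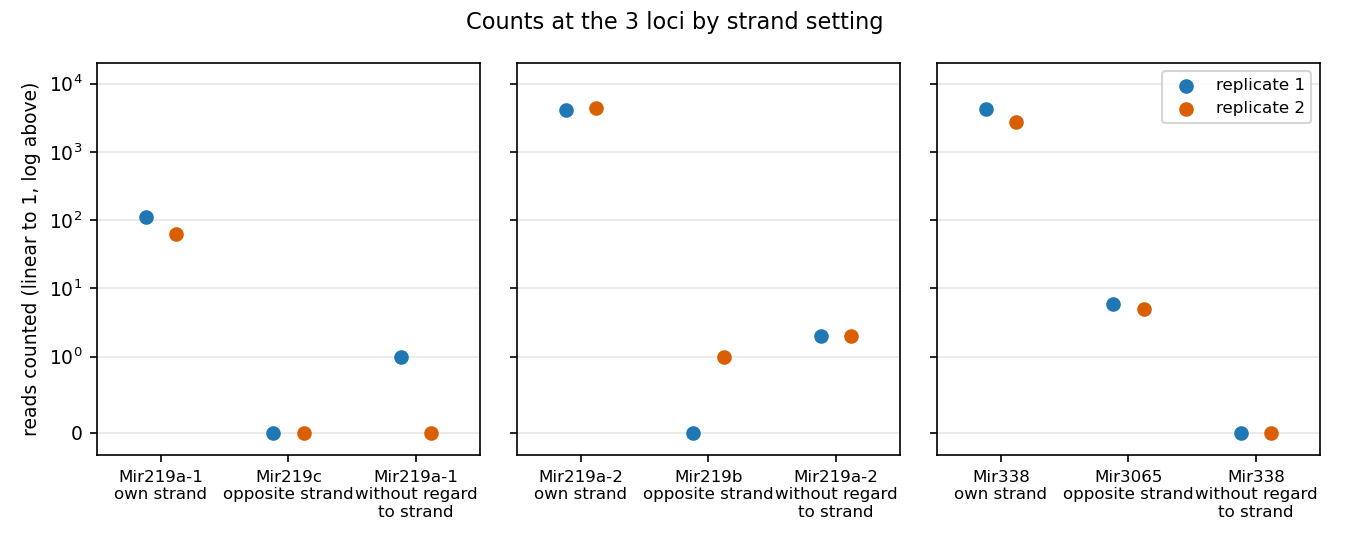
Reads counted at each locus, on an axis that is linear to 1 and logarithmic above, for the gene's own strand, for the gene annotated opposite it and for the gene when strand is disregarded; points are the 2 libraries. Own-strand counts of 62 to 4448 fall to 0 to 2 when strand is disregarded, while the opposite genes hold 0 to 6 reads.

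Between the libraries, Mir219a-2 was the only gene of the 3 to differ by the test used. Each detected gene was compared with a two-sided exact binomial test on its reads, scaled by TMM library sizes (edgeR), with Benjamini-Hochberg adjustment over all 429 genes. The test compares these 2 libraries and no conditions, and it called 61.3% of detected genes, 28.7% as higher and 32.6% as lower in replicate 2. Mir219a-2 was higher in replicate 2 by a log2 ratio of 0.65 (0.59 to 0.71), or 1.57-fold (exact binomial test, adjusted p = 1.38e-96). Mir338 had a log2 ratio of -0.08 (-0.14 to -0.01; exact binomial test, adjusted p = 0.0532), and with DESeq2 size factors -0.12 (adjusted p = 0.00137), so its call rests on the scaling. Mir219a-1 had a log2 ratio of -0.26 (-0.74 to 0.19; exact binomial test, adjusted p = 0.327).

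With calls so common, 1 call among 3 genes does not set them apart. The size of the differences places the 3 genes better. An absolute log2 ratio at least as large as that of Mir219a-2 was found for 26.6% of detected genes, for 57.6% in the case of Mir219a-1 and for 90.2% in the case of Mir338. The median absolute log2 ratio was 0.33. Mir338 was thus among the steadier genes across these libraries, and Mir219a-2 lay above the median spread.

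**Figure D4:**
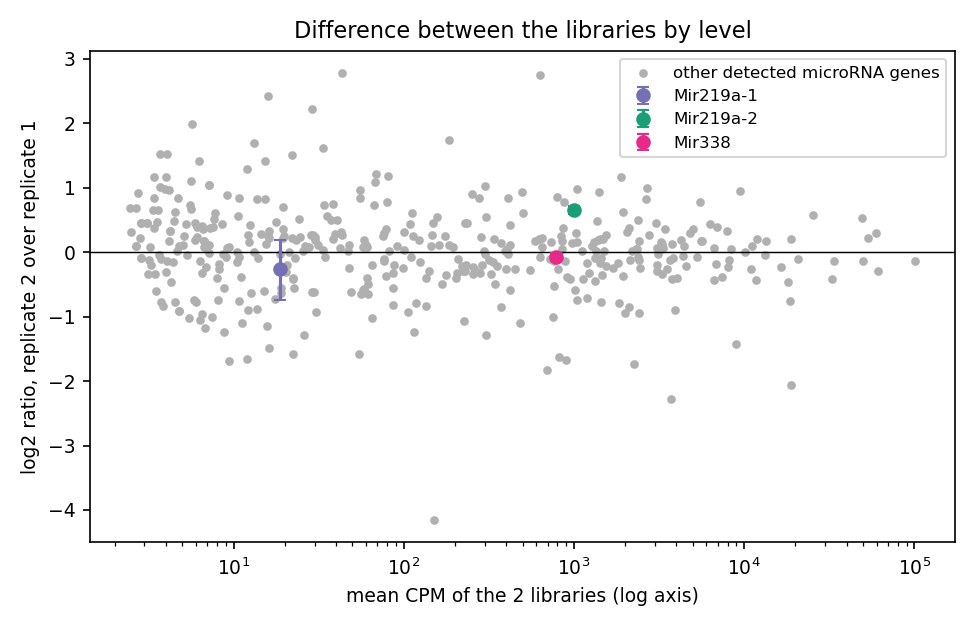
Log2 ratio of replicate 2 to replicate 1 against mean CPM on a log axis for the 429 detected genes; grey points are other genes, and bars on the 3 coloured points are 95% intervals for counting error. Mir338 sits at -0.08, Mir219a-2 at 0.65 and Mir219a-1 at -0.26 with the widest interval.

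Marker lists of other cell types did not move by a common factor. Values are summed CPM in replicates 1 and 2. The oligodendrocyte list, which is the 3 genes themselves, stood at 1563 and 2041, while 5 neuron genes stood at 25485 and 27237, 4 astrocyte genes at 2619 and 2601, and 3 endothelium and vessel wall genes at 11756 and 11138. The 4 choroid plexus or ependyma genes stood at 6194 and 6090 and the 4 microglia or blood genes at 867 and 1133, and no list had a gene without reads. A part of differing dissection or cell content in the Mir219a-2 difference was not tested. Sums hide opposite moves within a list, as with Mir21a at 1354 and 441 CPM and Mir29a at 943 and 1874 CPM among the astrocyte genes. Mir338, of the same list as Mir219a-2, stood at 783 and 776 CPM.

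Other microRNAs reported to promote oligodendrocyte differentiation or myelination were mostly higher in replicate 2. Of 7 such genes, all detected, 5 were called higher, 1 lower and 1 was not called (median log2 ratio 0.36, beside 0.04 over all detected genes, of which 28.7% were called higher and 32.6% lower). With DESeq2 size factors 4 were called higher, 1 lower and 2 were not called. At a minimum of 100 counts in each library, which all 7 passed, 82.4% of genes were called. Of those calls, 48.2% were higher in replicate 2. Mir138-1 and Mir138-2, which are known with miR-219 and miR-338 from early differentiation and also from dendritic spines, stood at 4296 and 5752 CPM and at 1488 and 2387 CPM in replicates 1 and 2. Mir23a, known to lower lamin B1 and favour myelination, stood at 3922 and 7054 CPM. The gene called lower was Mir146, also an immune regulator, at 1069 and 832 CPM, and the gene not called was Mir32, at 53.3 and 63.1 CPM. The remaining pair, Mir7-1 and Mir7-2, stood at 66.8 and 83.4 CPM and at 329.6 and 656 CPM. Both Mir7 copies give the same miR-7a strand and both Mir138 copies the same miR-138 strand, so their counts, like those of Mir219a, may leave out reads shared between copies. Mir138-1, Mir138-2 and Mir23a lay above both Mir219a-2 and Mir338 in each library, and Mir138-1 is also in the neuron list above.

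MicroRNAs reported in progenitor division or to restrain differentiation went both ways. Of 11 such genes, 9 were detected, with 5 called higher and 4 lower in replicate 2 and a median log2 ratio of 0.18. The same values over all detected genes are 28.7% called higher, 32.6% called lower and a median of 0.04. At a minimum of 100 counts in each library, which these 9 genes passed, 82.4% of genes were called. Scaling by library totals left 3 of the 4 lower calls. The mir-17-92 cluster, which promotes progenitor division, was represented by Mir17 at 3736 and 3579 CPM, Mir18 at 227 and 179.9 CPM, Mir20a at 778 and 919 CPM and Mir92-1 at 1101 and 1615 CPM. Its members Mir19a and Mir19b-1 had 1 and 2 reads and 6 and 4 reads. Mir19b-1 shares its mature strand with another copy, Mir19b-2, and Mir92-1 shares a strand with Mir92-2. Mir125a was the highest of the list at 10822 and 13068 CPM, and Mir204, a gene of choroid plexus as well, stood at 1297 and 1557 CPM. The lowest of the genes called lower was Mir27a, at 106 and 93.2 CPM, while Mir145a, a vessel wall gene, stood at 232 and 209 CPM. Mir212, which shares a primary transcript with the neuronal Mir132, differed most of the list, at 285 and 534 CPM.

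Messenger RNA was not measured here, so what these microRNAs act on can be shown only as sequence. The 7 messenger RNAs searched, all reported as targets, encode Pdgfra, the transcription factors Sox6, Hes5, Foxj3, Zbtb18 and Etv5, and Lingo1, a membrane protein that restrains myelination. For each, the 3′ untranslated region of the coding transcript with the longest such region was searched on its own strand. The letters searched were GACAATC, which pair with the seed of miR-219a-5p, and ATGCTGG, which pair with that of miR-338-3p. Matches to the first were found in Pdgfra (1), Sox6 (2), Foxj3 (2), Zbtb18 (2) and Etv5 (1), and matches to the second in Sox6 (3) and Zbtb18 (1). Neither was found in Hes5 or Lingo1, whose regions were the shortest, at 696 and 984 bases. Examples of matches that are followed by an A, as GRCm38 positions of the 7 matching letters in capitals, are these.
Pdgfra, chr5:75197713-75197719, plus strand: ttttatgatGACAATCaaagctt
Sox6, chr7:115474015-115474021, minus strand: atggagaatGACAATCacagaga
Foxj3, chr4:119626521-119626527, plus strand: cctttcgaaGACAATCagagatt
Zbtb18, chr1:177450506-177450512, plus strand: tctagaggaGACAATCaatgtct
Sox6 for miR-338-3p, chr7:115471792-115471798, minus strand: ctcactgacATGCTGGactgaca

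Longer regions hold more matches, so each was set beside the first bases, of the same length, of all genes with a region at least as long. The letters GACAATC were found in 9.53% of such regions for the 3115 bases of Pdgfra, 8.37% for the 2715 bases of Foxj3, 8.86% for the 2866 bases of Zbtb18, 7.09% for the 2161 bases of Etv5 and 21.02% for the 6046 bases of Sox6. The letters ATGCTGG were found in 43.6% of regions as long as that of Sox6 and 24.6% of those as long as that of Zbtb18. At the lengths of genes without a match, the values for ATGCTGG were 26.8% (Pdgfra), 23.7% (Foxj3), 19.3% (Etv5), 9.78% (Lingo1) and 6.95% (Hes5). For GACAATC they were 3.61% (Lingo1) and 2.49% (Hes5). The percentages count regions that hold a match, however many, so they do not speak to regions with several. The genes were picked as reported targets, so matches in them are no independent test of targeting. A match is a description of letters and does not show that the site is used in this tissue.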

How the data were processed

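MicroRNA-seq of 2 hippocampus samples was used. The authors deposited raw read counts per microRNA gene, in 1 table per library, for mm10 and GENCODE M21 per the notes with the files. Not given in the sources used here are the aligner, the counter and the filters. The tables have counts without regard to strand and counts for each strand; the strand column with the larger total over genes was taken as sense. Every read stands in 1 row, and the 4 rows of reads without a gene were left out of library sizes. Sense counts were 36.4% and 37.6% of the reads of replicates 1 and 2.

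CPM divides sense counts by their library total. The libraries differed beyond sampling noise (chi-square per gene 519.6). Exact binomial tests (scipy 1.17.1) used TMM factors of 0.979 and 1.02 (edgeR 4.0.16), and ratios add 0.5 counts. A quasi-likelihood test was not used, since it needs 2 groups. Before use, the comparison was run on simulated counts with sampling noise only. That run does not cover the larger spread between these libraries. Alternatives were DESeq2 1.42.0 size factors, library totals, minimums of 1 and 100 counts, 0.1 added counts, counts without regard to strand, all reads as the denominator and each replicate left out.

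The genes, lists and tests were chosen with earlier results of these data known. Genes were named by rule: the 3 genes, those opposite them, the lists, and the nearest genes by level and by rank. In the lists, Mir7-1 and Mir7-2 were matched through RefSeq synonyms of Mir7a-1 and Mir7a-2. Sequences came from RefSeq (GRCm38.p6) and the transcripts of GENCODE M21, and folding used RNAfold 2.7.2. Whether reads from the CAST allele map less well to the reference was not tested. The spread between the 2 samples covers animals, dissection and library preparation together.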

Additional observations from a re-analysis of the deposited data

Results flagged for a closer look

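A few reads lay on Mir3065, the gene opposite Mir338 that none of the level comparisons use. Replicate 1 had 6 and replicate 2 had 5. Whether these reads exceed a background of stray reads was not tested. The positions of these reads within the gene are not part of the count tables.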

How the results depend on the processing

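Besides leaving out replicates, 37 values were recomputed, and 27 stayed within the spread between the libraries, on their side of the threshold or within 1.5 times of a count. With 2 libraries, a mean without either stays within their spread by construction, so the 24 values with a replicate left out say nothing about stability. With all reads as the denominator, mean levels in CPM were 6.92 for Mir219a-1, 373 for Mir219a-2 and 288 for Mir338, and the summed share was 0.0668%, since the denominator is larger. With counts made without regard to strand, they were 0.0969, 0.493 and 0 CPM, the summed share was 5.9e-05%, and Mir219a-2 held 83.3% of the few reads on the pair of copies. With DESeq2 size factors the log2 ratio of Mir338 was -0.12 with an adjusted p of 0.00137 (exact binomial test), and over its other alternatives the adjusted p ran from 0.0532 to 0.780. Leaving out a replicate gave 760.3 to 1248 CPM for Mir219a-2 and 776 to 783 CPM for Mir338. The direction of the log2 ratio of Mir219a-2 to Mir338 rests on the library, at -0.04 without replicate 2 and 0.69 without replicate 1. The median log2 ratio of all detected genes was 0.04 with TMM, 2.54e-05 with size factors of DESeq2 and 0.11 by library totals. Mir219a-1 gave no ratio or rank at a minimum of 100 counts, and none of the 3 genes gave a ratio without regard to strand. Depth limits Mir219a-1 most, which rests on 110 and 62 reads.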
